A study of Mus musculus with 22 samples.

Results

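The genes described here are 8 that act in amyloid, tau and prion biology: App, Aplp1, Aplp2, Bace1, Psen2, Ncstn, Mapt and Prnp. They were taken by gene symbol from the 55385 genes in the quantification tables, and all 8 passed the filter on low counts, as did 20524 genes in total. Levels are given in TPM, the share of each transcript in a library after division by its length, summed over all transcripts of a gene. The RNA was pulled down with HA-tagged ribosomes (RiboTag) from 6-week-old Rpl22 Fl/+ mice that carried a Cre driver, so that ribosomes were tagged in the cells where Cre had been active. Dentate gyrus granule cells from the hippocampus and layer V neurons from the cortex were both tagged with Rbp4-Cre. Gabra6-Cre marked cerebellar granule cells, Dlx6a-Cre hippocampal inhibitory interneurons, and the cortical glia were tagged with drivers labelled Aldh1-cre (astrocytes; the methods name an Aldh1l1-cre/ERT2 line) and Tmem119-cre (microglia), both tamoxifen-inducible per the methods. Each of the 6 cell types had 3 biological replicates, and each interneuron library pooled 2 mice. The methods give tamoxifen by mouth for inducible Cre lines alone, so that this treatment and the glial groups go together. The labels name no other allele and no other treatment for any group.

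The amyloid precursor protein, encoded by App, is a membrane protein that is first cut outside the membrane, either by an alpha-secretase or by the beta-secretase Bace1, and then within the membrane by gamma-secretase. The second pathway releases amyloid-beta. Gamma-secretase is a complex of a presenilin (Psen2 is one), nicastrin (Ncstn), Pen-2 and Aph1. Aplp1 and Aplp2 are the relatives of App in the mouse and lack the amyloid-beta sequence. Mapt encodes tau, which binds microtubules in axons and is altered by phosphorylation, and Prnp encodes the cellular prion protein, a glycoprotein of the cell surface.

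App and Aplp2 share an alternative exon for a Kunitz protease inhibitor domain, and Mapt has a pair of alternative exons that add short inserts to the N terminus of tau. The transcript results below turn on these exons, which are shown on the coding strand from the GRCm38 genome. Capitals in the Kunitz exons mark the stretch that encodes the signature of Kunitz inhibitors; the other exons carry no capitals. App exon 8 is a second alternative exon beside the Kunitz exon, and App exon 15 is skipped in the transcripts App-203 and App-204. Exons are numbered along App-206, the longest Aplp2 transcript with the Kunitz exon, and Mapt-203.
App Kunitz exon 7, chr16:85043576-85043743, minus strand: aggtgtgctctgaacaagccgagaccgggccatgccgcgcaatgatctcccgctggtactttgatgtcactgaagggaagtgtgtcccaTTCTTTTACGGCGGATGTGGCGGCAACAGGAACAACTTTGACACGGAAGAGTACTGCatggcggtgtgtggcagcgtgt
Aplp2 Kunitz exon 7, chr9:31167561-31167728, minus strand: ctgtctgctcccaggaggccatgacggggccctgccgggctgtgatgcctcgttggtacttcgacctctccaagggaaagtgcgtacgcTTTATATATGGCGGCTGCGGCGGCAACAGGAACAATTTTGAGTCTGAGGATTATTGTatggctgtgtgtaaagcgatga
App exon 8, chr16:85040251-85040307, minus strand: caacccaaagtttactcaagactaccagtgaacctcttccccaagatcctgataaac
App exon 15, chr16:84971408-84971461, minus strand: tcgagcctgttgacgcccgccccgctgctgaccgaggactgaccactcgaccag
Mapt insert exon 2, chr11:104287123-104287209, plus strand: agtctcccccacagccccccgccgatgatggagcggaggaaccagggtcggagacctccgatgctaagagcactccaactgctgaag
Mapt insert exon 3, chr11:104289908-104289994, plus strand: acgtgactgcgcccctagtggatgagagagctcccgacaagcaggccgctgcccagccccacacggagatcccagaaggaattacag
The Kunitz exons of App and Aplp2 are both 168 bases long and identical at 114 positions (67.9%). Within the signature, 43 of 57 bases are identical. In each exon listed the number of bases is a multiple of 3, so that its use keeps the reading frame.

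The 18 libraries held 38270477 to 71440915 estimated counts, and a member had between 514 and 151043 of them in a library. The markers of each cell type were highest in the libraries of that type, except that of the layer V markers Etv1 was highest in cerebellar granule cells and Bcl11b in dentate granule cells, while Fezf2 was highest in layer V. RNA of other cells was present: the summed level of 5 pan-neuronal markers was 802 to 1057 TPM in astrocyte libraries and 387 to 434 TPM in microglia libraries, on average 11.8% and 5.18% of the neuronal mean. The summed level of 6 oligodendrocyte markers was 2855 to 3059 TPM in interneuron libraries, 993 to 1212 TPM in astrocytes and 122 to 644 TPM elsewhere. The 6 astrocyte markers summed to 270 to 322 TPM in microglia libraries, on average 2.43% of their level in astrocytes. The 5 microglia markers in astrocyte libraries were at 0.509% of their level in microglia. All interneuron and microglia libraries were sequenced in batch 2 and the other libraries in batch 1. In the 4 replicates sequenced in both batches, the members' TPM differed between the batches by a median of 1.09% and at most 6.01% (Psen2, dentate granule cells). One of these, layer V replicate 1, is labelled female in batch 1 and male in batch 2, but Xist was at 2.45 and 2.13 TPM in the 2 libraries, against 0.0063 TPM in the male replicate 3, and the Y-linked Eif2s3y at 0 and 0.101 TPM against 24.2 TPM; without this pair the median was 1.42%. In ribosome-bound RNA of a tissue, fewer cells, less RNA per cell and less ribosome loading cannot be told apart.

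Most genes differ between these cell types, so the size of a difference says more than whether it was called. Of all genes tested, 83.3% differed between neurons (the mean of the 4 neuronal types) and glia (the mean of astrocytes and microglia) at an adjusted p of at most 0.05, by edgeR's quasi-likelihood test over the 18 libraries, with 36.4% higher in neurons and 46.8% higher in glia (7480 and 9607 genes, against 9340 and 7930 in a limma fit on log2(TPM + 1)). Of the members, 6 were higher in neurons (App, Mapt, Bace1, Aplp1, Prnp and Aplp2), Ncstn was higher in glia and Psen2 was not called. The median difference over the members was 1.02 on the log2 scale, against -0.18 over all genes. Scaling by the upper quartile or by TPM moved the median of all genes to -0.24 and 0.05. In absolute size, the median log2 difference of all genes tested was 0.93. The share of genes with a larger one ran from 21.5% for App to 95.0% for Psen2. The median range of all genes, highest over lowest cell type in mean TPM, was 6.81-fold. The share of genes with a larger range ran from 27.8% for Prnp to 93.3% for Psen2, with 50.2% for App. Standard errors and adjusted p-values of these fits measure the spread of replicates within cell types. They do not measure the spread between the types of neurons or of glia. The contrasts weight cell types equally on the log scale, so a gene that is high in 1 of the glial types can have a higher arithmetic mean in glia and still be called higher in neurons, as Prnp was (747 TPM in glia and 650.0 TPM in neurons). Between pairs of cell types, the share of all genes called was 63.4% for dentate granule cells against layer V, 73.9% against cerebellar granule cells, 63.9% against interneurons, 74.2% against astrocytes and 79.8% against microglia. It was 76.1% for layer V against cerebellar granule cells, 60.7% against interneurons, 77.2% against astrocytes and 83.2% against microglia. For cerebellar granule cells it was 75.2% against interneurons, 82.7% against astrocytes and 85.5% against microglia, and for interneurons 73.2% against astrocytes and 80.8% against microglia. Of the 40 steps between neighbours in the members' orders by TPM, 21 were called in the same direction in counts and on log2(TPM + 1). The TPM of neuronal and glial libraries did not overlap for 3 members, App, Bace1 and Mapt (22.4% of all genes tested had no overlap).

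**Figure D1:**
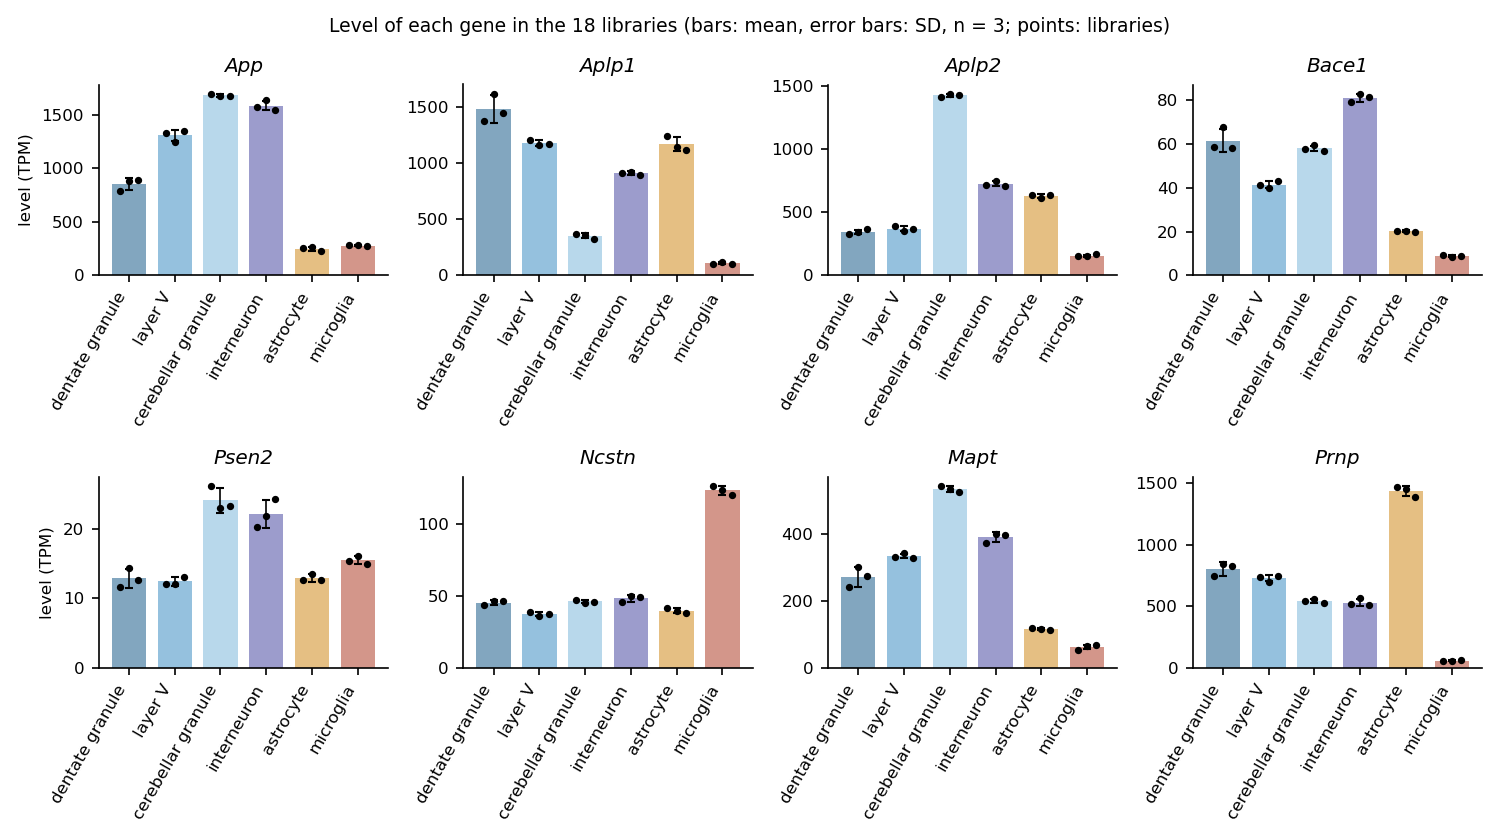
Level in TPM (linear axes from 0) of the 8 genes in each cell type; bars are means, error bars SDs, and points the 3 libraries. App, Bace1 and Mapt are higher in every neuronal library than in every glial library, Prnp peaks in astrocytes at a mean of 1438 TPM, and Ncstn in microglia at 124 TPM.

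App was among the most abundant ribosome-bound mRNAs of neurons and was lower in both glial types. Its level was 1697, 1676 and 1671 TPM in cerebellar granule cells, where it ranked number 41 of all genes. Interneurons had 1574, 1633 and 1547 TPM, layer V neurons 1329, 1248 and 1343 TPM, and dentate granule cells 788, 879 and 888 TPM. The order among these neurons ran from cerebellar granule cells down to dentate granule cells, with no overlap between neighbouring types. Microglia had 279, 279 and 275 TPM and astrocytes 258, 263 and 226 TPM, so that the lowest neuronal library lay well above the highest glial one. App was 4.33-fold higher in neurons than in glia (log2 difference 2.11 ± 0.03, SE; edgeR adjusted p = 6.56e-20). In the count fit, interneurons were not distinguished from layer V neurons (edgeR adjusted p = 0.693), nor microglia from astrocytes (adjusted p = 0.165), whereas the fit on log2(TPM + 1) called both. The step from cerebellar granule cells to interneurons was called in counts and not in TPM (limma adjusted p = 0.227).

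Aplp1, whose expression is largely restricted to the nervous system, had another order. It was highest in dentate granule cells (1379, 1620.4 and 1450 TPM), followed by layer V neurons (1207, 1159 and 1169.5 TPM) and astrocytes (1242, 1148 and 1120.3 TPM). These astrocyte and layer V values overlapped, and neither fit distinguished them (edgeR adjusted p = 0.208 in counts). Interneurons had 898 to 925 TPM, cerebellar granule cells 327 to 366 TPM and microglia 102 to 118 TPM. The step from dentate granule cells to layer V was called in TPM and not in counts (edgeR adjusted p = 0.141). The range over cell types was 13.7-fold (36.3% of genes tested had a larger one). Aplp1 in microglia was 11.1% of its neuronal mean, beside 5.18% for the pan-neuronal markers. The part of RNA of other cells in the microglial Aplp1 level was not tested.

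Aplp2, which is expressed widely outside the brain too, was highest in cerebellar granule cells, with 1413, 1436 and 1421 TPM. Interneurons had 709 to 745 TPM, astrocytes 607 to 638 TPM, layer V neurons 347 to 387 TPM, dentate granule cells 325 to 363 TPM and microglia 150 to 165 TPM. Layer V and dentate granule cells overlapped. Interneurons and astrocytes did not overlap in TPM, but their difference was not called in the count fit (log2 difference -0.11 ± 0.06, SE; edgeR adjusted p = 0.125), where its sign was opposite to that in TPM.

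The 3 family members together made up 2678 ± 175 TPM in dentate granule cells, 2853 ± 88.6 TPM in layer V, 3457 ± 32.5 TPM in cerebellar granule cells and 3220.0 ± 76.2 TPM in interneurons (SD, n = 3). Astrocytes had 2045 ± 78.8 TPM and microglia 542 ± 7.50 TPM. The make-up of that sum differed between the granule cells. Aplp1 made up 55.4% ± 1.7 of it in dentate granule cells and 10.2% ± 0.54 in cerebellar granule cells, while Aplp2 made up 12.8% ± 0.74 and 41.2% ± 0.48. App made up 31.8% ± 0.99 in dentate granule cells and 45.8% to 49.2% on average in the other neurons. In microglia App was the largest part (51.2% ± 0.92), and in astrocytes it was the smallest (12.2% ± 0.82, all SD, n = 3).

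The secretase genes were each less abundant than App, and each had its own pattern. Bace1, the beta-secretase, was highest in interneurons (79.2, 82.8 and 81.8 TPM). Dentate granule cells (58.7, 67.7 and 58.2 TPM) and cerebellar granule cells (57.8, 59.5 and 56.9 TPM) overlapped and were not distinguished (edgeR adjusted p = 0.883). Layer V neurons had 39.8 to 43.1 TPM, astrocytes 19.8 to 20.5 TPM and microglia 8.22 to 9.18 TPM. Bace1 was thus 3.72-fold higher in neurons than in glia (log2 difference 1.89 ± 0.04, SE; edgeR adjusted p = 1.61e-18). Its leading transcript, with the complete coding sequence of 501 codons, made up 57.5% to 59.5% of Bace1 on average in the granule and layer V neurons, and 39.7% ± 3.0 (SD, n = 3) in interneurons.

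Ncstn encodes the large extracellular subunit of gamma-secretase and was the one member with its highest level in microglia, at 127, 124 and 121 TPM. The other cell types lay close together, from 35.9 to 50.0 TPM, and of the 5 steps in the order only that below microglia was called in the same direction in counts and in TPM. Microglia were 3.18-fold above the mean of neurons (log2 difference 1.67 ± 0.03, SE; edgeR adjusted p = 1.05e-18). Astrocytes were 1.07-fold above it in counts (edgeR adjusted p = 0.0148) and below it in mean TPM. Ncstn overlaps Copa on the opposite strand, and whether the quantification used strand is not given in the sources used here, so reads of the shared stretch cannot be told apart.

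Psen2, the catalytic subunit in part of the gamma-secretase complexes, had the lowest mean level of the members in every cell type except microglia, where Bace1 was lower, and it varied least, by 1.95-fold between the highest and the lowest type. Cerebellar granule cells had 26.3, 23.0 and 23.3 TPM and interneurons 20.3, 21.9 and 24.4 TPM. Microglia had 14.96 to 16.1 TPM, and dentate granule cells, layer V neurons and astrocytes lay between 11.7 and 14.4 TPM and overlapped. Neurons and glia were not distinguished (log2 difference 0.08 ± 0.05, SE; edgeR adjusted p = 0.107). This call was not stable: it passed when any 1 library was left out, except interneuron replicate 1, astrocyte replicate 1, microglia replicate 2 or microglia replicate 3, with differences of 0.09 to 0.14 over the 18 omissions, and it passed on the log2(TPM + 1) scale at 0.26.

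Mapt had the same order as App among the neurons, and was higher in astrocytes than in microglia. Cerebellar granule cells had 545, 535 and 527 TPM, interneurons 374, 401.5 and 399 TPM, layer V neurons 333, 343 and 329 TPM, and dentate granule cells 242, 301 and 275 TPM. Astrocytes had 119, 116 and 112 TPM and microglia 53.9, 65.1 and 66.5 TPM. No neighbouring types overlapped, and of the 5 steps in the order only that between interneurons and layer V was not called in the same direction in counts and in TPM (log2 difference, interneurons minus layer V, -0.15 and 0.22). Mapt was 3.79-fold higher in neurons than in glia (log2 difference 1.92 ± 0.05, SE; edgeR adjusted p = 4.14e-17). Mapt in astrocytes was 30.1% of its neuronal mean and in microglia 16.1%, beside 11.8% and 5.18% for the pan-neuronal markers; the part of neuronal RNA in the glial Mapt level was not tested.

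Prnp had the largest range of the members, 25.4-fold (27.8% of genes tested had a larger one). Astrocytes had 1468, 1455 and 1391 TPM, above every other library. Dentate granule cells (742, 846 and 823 TPM) and layer V neurons (734, 699 and 746 TPM) overlapped, as did cerebellar granule cells (542, 559 and 523 TPM) and interneurons (515, 563 and 508 TPM). Microglia had 56.4, 55.8 and 57.9 TPM, below every other library. Prnp was 2.70-fold higher in astrocytes than in the mean of neurons (log2 difference 1.43 ± 0.03, SE; edgeR adjusted p = 5e-17), and it was lower in microglia than in neurons by 10.01-fold (log2 difference -3.32 ± 0.05; edgeR adjusted p = 2.59e-20). Prnp in microglia was 8.72% of its neuronal mean in TPM, beside 5.18% for the pan-neuronal markers. Astrocyte markers in the same libraries were at 2.43% of their level in astrocytes. The part of neuronal and astrocyte RNA in the microglial Prnp level, and so in its fold, was not tested. Prnp shares its locus with the readthrough gene Prn, so counts of the shared exons could be split between them.

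**Figure D2:**
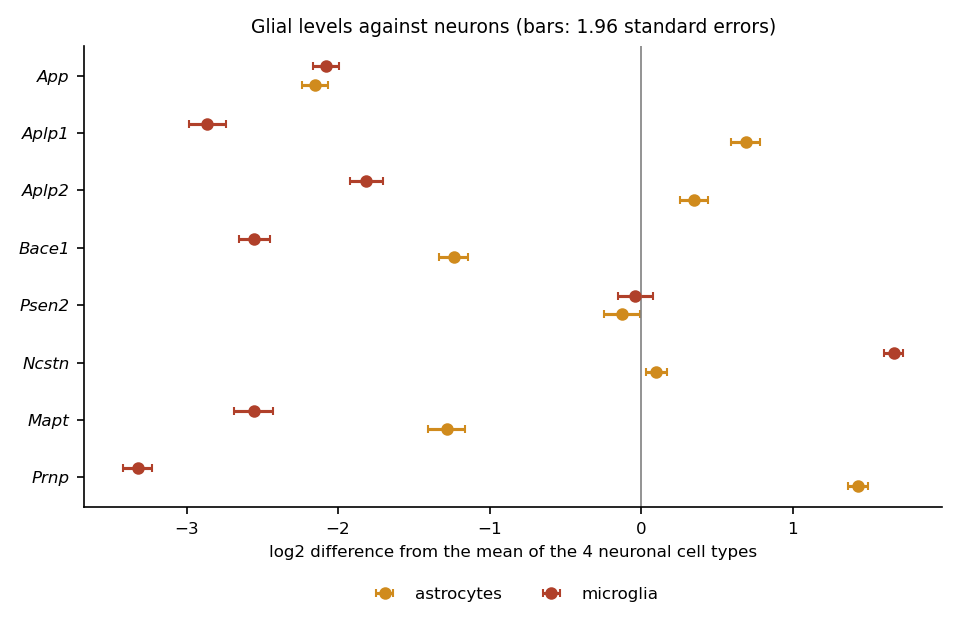
Log2 difference of astrocytes and of microglia from the mean of the 4 neuronal cell types for each gene; points are estimates of the count fit and bars their approximate confidence intervals from the standard errors. Astrocytes are above the mean of neurons and microglia below it for Aplp1, Aplp2 and Prnp, with differences of 0.69, 0.35 and 1.43 against -2.86, -1.81 and -3.32; in mean TPM, Aplp2 in astrocytes was below neurons (87.7%).

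The 2 glial types also differed from each other. Of the members, 6 were called between astrocytes and microglia (76.1% of all genes), 5 higher in astrocytes (39.8% of all genes) and 1 higher in microglia (36.3%). The difference was 4.76 ± 0.06 on the log2 scale for Prnp, 3.55 ± 0.07 for Aplp1, 2.16 ± 0.06 for Aplp2, 1.31 ± 0.06 for Bace1 and 1.27 ± 0.07 for Mapt, and it was -1.57 ± 0.05 for Ncstn (all SE). App (-0.07 ± 0.05) and Psen2 (-0.09 ± 0.07) were not called. Against neurons, astrocytes had 7 called members (77.1% of all genes), 4 higher (43.0%) and 3 lower (34.1%). Microglia had 7 (82.3%), 1 higher (45.1%) and 6 lower (37.2%). For Aplp1, Aplp2 and Prnp the mean of the 4 neuronal types on the log2 count scale lay above that of the 2 glial types and below that of astrocytes. It was not so for each neuronal type. Aplp1 in astrocytes was not distinguished from dentate granule cells (edgeR adjusted p = 0.781) or layer V neurons (edgeR adjusted p = 0.208). Aplp2 in astrocytes was below cerebellar granule cells (log2 difference, cerebellar granule cells minus astrocytes, 0.95 ± 0.06, SE) and at 87.7% of the neuronal mean in TPM, an arithmetic mean. Within batch 1, where the 3 neuronal types can be set only against astrocytes, the difference was -0.73 for Aplp1, -0.49 for Aplp2 and -1.36 for Prnp. Within batch 2, interneurons against microglia, it was 2.86, 2.09 and 2.97. For App it was 2.05 within batch 1 and 2.25 within batch 2, for Bace1 1.10 and 2.83, for Mapt 1.23 and 2.60, and for Ncstn -0.16 and -1.63. Astrocytes and microglia were sequenced in different batches, so batch and cell type cannot be told apart between them.

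App transcripts separated neurons from glia, and astrocytes from microglia. App-201, which skips the Kunitz exon and encodes the form of 695 residues known from neurons, made up 92.4% to 97.2% of App TPM in every neuronal library. In astrocytes it made up 73.5%, 78.1% and 75.2%, and in microglia 19.1%, 21.8% and 20.7%. The share of App TPM with the Kunitz exon was 76.3% to 79.6% in microglia, 20.5% to 24.5% in astrocytes, 5.97% to 7.40% in dentate granule cells and 2.31% to 3.38% in the other neurons. The ranges of these 4 sets of libraries did not overlap. The difference, neuronal minus glial libraries, was -46.5 percentage points (exact two-sided permutation test, p = 5.39e-05, the smallest that these 18564 splits allow); over the 6 cell-type means the smallest p such a test allows is 0.0667, which it reached. Within batch 1 the difference, neurons minus astrocytes, was -19.0 points (exact two-sided permutation test over libraries, p = 0.00455, the smallest 220 splits allow). Over the cell-type means of batch 1, the exact two-sided permutation test gave p = 0.25, the smallest that 4 splits allow. Within batch 2 the difference, interneurons minus microglia, was -74.5 points, where the smallest p that 3 libraries against 3 allow is 0.1.

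In level, as against share, the Kunitz form stood apart in microglia but not in astrocytes. Transcripts with the Kunitz exon summed to 216 ± 5.95 TPM in microglia, 57.1 ± 5.27 TPM in astrocytes, 57.8 ± 4.58 TPM in dentate granule cells, 50.2 ± 2.57 TPM in interneurons, 48.5 ± 1.90 TPM in cerebellar granule cells and 30.9 ± 1.59 TPM in layer V neurons (SD, n = 3). App-201 in microglia was at 53.3, 60.8 and 56.8 TPM, 4.36% of its neuronal mean, and in astrocytes at 190, 205 and 170 TPM, 14.4% of it. The pan-neuronal markers were at 5.18% and 11.8% of their neuronal mean in the same libraries; the part of neuronal RNA in glial App-201 was not tested.

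The Kunitz transcripts themselves were not the same in the 2 glial types. App-202, with the Kunitz exon but without exon 8, had 108, 95.8 and 102 TPM in microglia, 45.1, 34.9 and 36.8 TPM in astrocytes, and 25.6 to 35.8 TPM in dentate granule cells, against 1.43 to 23.5 TPM in the other neurons. App-203, with exon 8 and without exon 15, had 95.6, 83.4 and 94.3 TPM in microglia, 13.2, 13.7 and 13.3 TPM in astrocytes and at most 4.96 TPM in a neuronal library. App-204, with neither exon 8 nor exon 15, had 16.1, 30.2 and 12.8 TPM in microglia and at most 1.27 TPM in any other library, and was listed at 0 in the astrocyte and dentate granule libraries. Forms without exon 15 are known as L-APP from leukocytes and microglia, and skipping that exon creates an attachment site for chondroitin sulfate. Together App-203 and App-204 made up 39.9% ± 0.90 of App in microglia, 5.40% ± 0.44 in astrocytes and a mean of at most 0.462% in a neuronal type (SD, n = 3). This share was chosen after the values were seen and was not tested. Exon 8 was held by 34.0% ± 2.5 of App in microglia and 7.31% ± 0.36 in astrocytes.

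Most of the Kunitz share of layer V and cerebellar granule cells came from App-206, the longest App transcript with 8167 bases, which made up 1.15% to 2.62% of App on average in every cell type. Without App-206 the Kunitz share was 0.314% ± 0.093 in layer V, 0.582% ± 0.089 in cerebellar granule cells, 1.49% ± 0.22 in interneurons, 4.30% ± 0.79 in dentate granule cells, 21.5% ± 2.3 in astrocytes and 77.4% ± 1.8 in microglia (SD, n = 3). The order with dentate granule cells highest among neurons was thus the same with and without it.

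The use of each transcript relative to its gene was also tested across 53702 transcripts with edgeR's diffSpliceDGE, in which 28.8% were called, 6.94% used more in neurons and 21.9% more in glia. On simulated data 101 of the 680 transcripts that this test called (14.9%) were in genes without a change, so its adjusted p can understate false calls. The simulation gave all 34326 transcripts it tested the same spread, unlike real data. Where the false calls lay in adjusted p was not examined. Of App's 9 transcripts tested 8 were called, 3 used more in neurons and 5 in glia. App-201 was used more in neurons (log2 1.26, edgeR adjusted p = 1.71e-11), and App-202 and App-203 more in glia (log2 -4.95, adjusted p = 4.47e-44, and -6.91, adjusted p = 1.27e-47). App-206 was at 0.53 (adjusted p = 0.0151). App-210, without a coding sequence, was at -4.24 (adjusted p = 9.24e-06). App-204 was not called (log2 -4.88, adjusted p = 1).

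**Figure D3:**
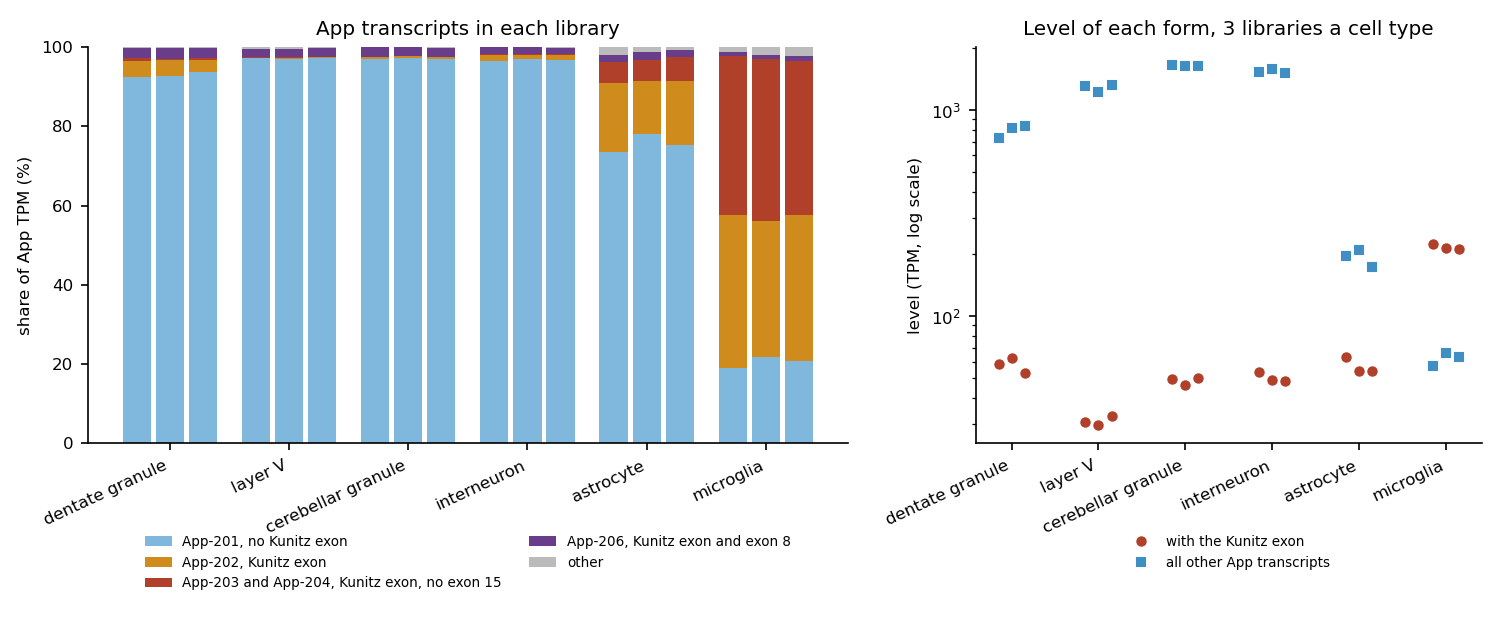
Left, share of App TPM (%) in each of the 18 libraries by transcript; right, level in TPM (log axis) of transcripts with the Kunitz exon and of all others, 3 libraries per cell type. App-201 fills over 92% of every neuronal bar and about 20% of the microglial bars, and microglia are the one cell type where the Kunitz transcripts (mean 216 TPM) exceed the others.

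Aplp2 showed a smaller difference at its Kunitz exon. The share of Aplp2 TPM in transcripts with that exon was 55.4% to 57.9% in microglia, 45.3% to 51.5% in astrocytes and 35.9% to 49.4% in neurons, so that astrocytes overlapped with neurons. The difference, neurons minus glia, was -8.34 percentage points (exact two-sided permutation test over libraries, p = 0.00393; over the cell-type means, p = 0.2), but within batch 1, against astrocytes alone, the difference was -3.21 points (exact two-sided permutation test, p = 0.336). The share rests partly on an incomplete Kunitz transcript of 1961 bases, which held 14.4% ± 0.56 of Aplp2 in microglia and 36.8% ± 0.63 in dentate granule cells. Among the transcripts with a complete coding sequence, that of 751 codons has the exon and that of 707 codons skips it. Of the complete transcripts, 71.1% ± 1.5 had the exon in microglia, 27.5% ± 1.3 in astrocytes, and a mean of 22.7% to 31.6% in the neuronal types (SD, n = 3), a choice made after the values were seen. The form of 707 codons without the exon was the leading transcript in layer V, cerebellar granule cells, interneurons and astrocytes, the incomplete one in dentate granule cells, and the form of 751 codons in microglia, at 42.2% ± 1.6 of Aplp2 against means of 11.1% to 15.99% elsewhere. In the same transcript test, the form of 751 codons was used more in glia (log2 -0.91, edgeR adjusted p = 3.21e-13) and that of 707 codons more in neurons (log2 0.58, adjusted p = 9.15e-07). The share of the form of 707 codons was 15.5% to 19.3% in microglia. In astrocytes it was 41.4% to 43.3%, within the range of 31.8% to 52.4% in neuronal libraries. A transcript of 1877 bases, annotated with a retained intron, made up 29.4% ± 1.8 of Aplp2 in layer V and a mean of 5.37% to 14.01% in the other types. All 8 Aplp2 transcripts tested were called (28.8% of all transcripts tested), 3 used more in neurons (6.94%) and 5 more in glia (21.9%).

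Mapt transcripts differed between the types of neurons. Every full-length Mapt transcript in the annotation has 4 microtubule-binding repeats, so a share of 3-repeat and 4-repeat tau could not be measured. Mapt-204, without the N-terminal inserts, led in every type, with 84.8% to 86.1% of Mapt in layer V libraries and 63.4% to 65.2% in cerebellar granule cells. The share of full-length Mapt with both inserts was 25.0%, 24.1% and 24.5% in cerebellar granule cells, 17.1%, 16.2% and 12.2% in dentate granule cells, 13.1%, 13.1% and 13.4% in interneurons, and 7.83%, 7.01% and 8.67% in layer V. Microglia had 7.97% to 9.52% and astrocytes 4.11% to 5.69%. Cerebellar granule cells were thus above every other library, while dentate granule cells overlapped with interneurons and layer V with microglia. Transcripts with the large exon of the form called big tau, known from peripheral neurons (Mapt-202 and Mapt-203), made up 6.19% ± 0.22 of full-length Mapt in cerebellar granule cells, 1.75% ± 0.23 in microglia and under 1% on average elsewhere, where dentate granule cells had 0.953% ± 0.133 (SD, n = 3). In cerebellar granule cells that was 10.1 TPM of Mapt-202 and 19.2 TPM of Mapt-203 on average. In level, the large-exon transcripts summed to 0.82 TPM in microglia and 0.83 TPM in astrocytes, below the means of 1.28 to 29.3 TPM in the neuronal types. Both of these shares were chosen after the values were seen and were not tested.

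Mapt-204 is 5253 bases long and Mapt-201, with both inserts, 1362 bases, so the annotated models also differ in their ends. Relative to the gene, Mapt-201 was used more in neurons than in glia (log2 1.28, adjusted p = 1.1e-11) and Mapt-204 was at -0.02 (adjusted p = 1). The transcripts used more in glia were Mapt-210 (log2 -3.47, adjusted p = 4.8e-12), Mapt-206 (-2.93, adjusted p = 7.44e-07) and the incomplete Mapt-211 (-4.98, adjusted p = 2.31e-14). Mapt-210, annotated without a coding sequence, made up 11.3% ± 0.75 of Mapt in microglia, 6.96 TPM, and 2.25% ± 1.06 in astrocytes (SD, n = 3). Mapt-207, an incomplete transcript of 293 bases, made up 2.22% to 10.3% on average and was not called (log2 0.99, adjusted p = 0.115). Mapt-202, Mapt-203, Mapt-205 and Mapt-208 were not called either (edgeR adjusted p = 0.163, 0.914, 0.0645 and 0.191). This left 4 of 10 Mapt transcripts called (28.8% of all transcripts tested), 1 used more in neurons (6.94%) and 3 more in glia (21.9%).

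**Figure D4:**
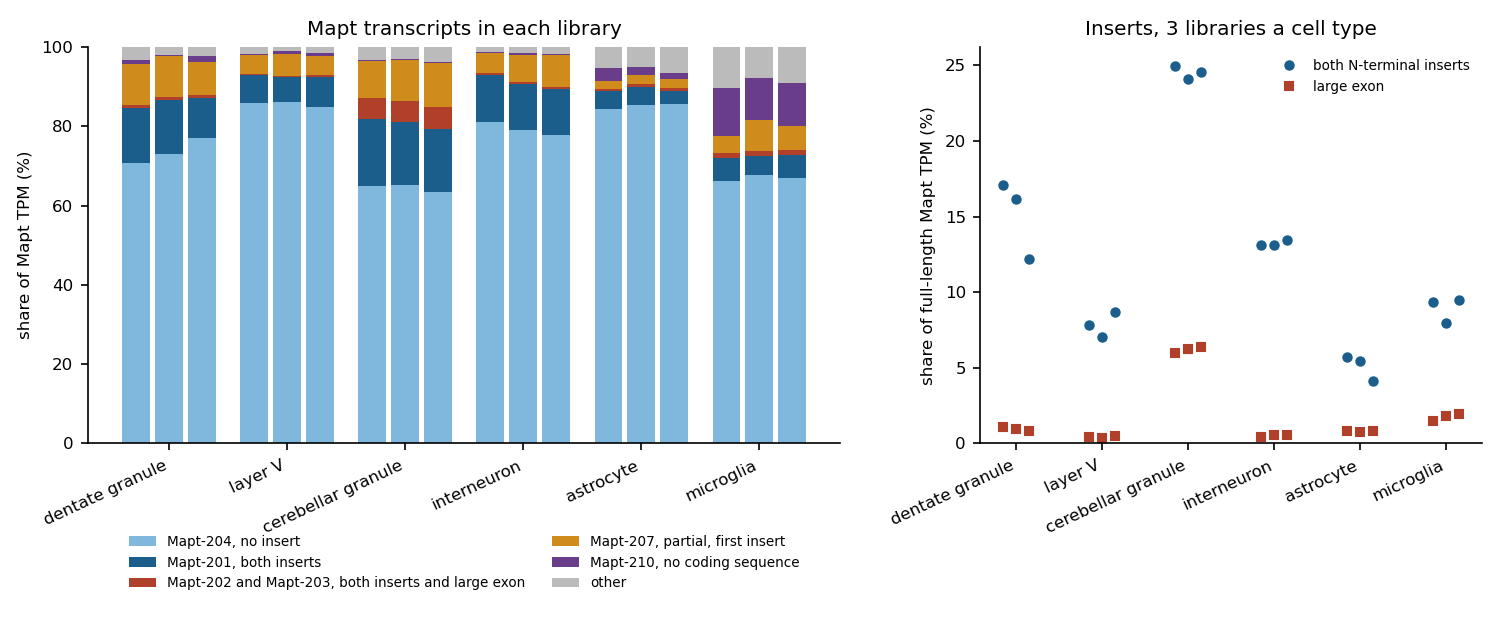
Left, share of Mapt TPM (%) in each of the 18 libraries by transcript; right, share of full-length Mapt TPM (%) with both N-terminal inserts and with the large exon, 3 libraries per cell type. Cerebellar granule cells have the highest share of both, with means of 24.5% and 6.19%.

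Of the other members, Aplp1, Prnp, Ncstn and Psen2 each used 1 leading transcript in all cell types. It made up 94.2% ± 0.16 of Aplp1 in microglia (SD, n = 3) and a mean of 99.2% to 99.8% in the other types. The means were 98.2% to 99.8% for Prnp, 92.4% to 95.4% for Ncstn and 73.9% to 93.0% for Psen2, which was lowest in microglia.

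Genes of the same pathways were taken as 9 lists of 55 genes, all of which were tested. Of these, 38 were higher in neurons (36.4% of all genes), 15 higher in glia (46.8% of all genes) and 2 were not called, and the median log2 difference was 0.79, against -0.18 over all genes. The gamma-secretase partners divided into 2 and 2. Aph1a (-1.45 ± 0.03, SE) and Psenen, which encodes Pen-2 (-1.04 ± 0.04), were higher in glia, and their mean levels were highest in microglia, as was that of Ncstn (80.6 and 193 TPM). Aph1b (0.84 ± 0.04) and Aph1c (0.70 ± 0.07) were called higher in the mean of neurons, although Aph1b had its highest mean in astrocytes at 16.7 TPM, and 1.64 TPM in microglia. Aph1c had 6.25 TPM in interneurons and 2.46 to 3.25 TPM in the other neurons, against 3.49 TPM in astrocytes and 2.33 TPM in microglia.

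All 4 genes of the list with the alpha-secretases and Bace2 were higher in glia, the reverse of Bace1, Adam10 through microglia, with 94.8 TPM against 27.2 TPM in astrocytes and 32.1 to 84.5 TPM in neurons. Adam17, a protease that also sheds tumour necrosis factor, differed most (-3.80 ± 0.05, SE), with means of 70.0 TPM in microglia, 14.3 TPM in astrocytes and 1.40 to 4.45 TPM in neurons. Bace2, a relative of Bace1, differed by -1.59 ± 0.14, although its highest mean was 2.53 TPM in dentate granule cells. Of the 8 adaptors that bind the tail of App, 6 were higher in neurons, led by Apbb1 (2.12 ± 0.04), which encodes Fe65, and Apba1 (1.91 ± 0.05), which encodes a Munc18-interacting adaptor; Apba3 (-1.32 ± 0.06) and Numb, an endocytic adaptor (-1.13 ± 0.04), were higher in glia, Numb through microglia, with 141 TPM against 19.2 TPM in astrocytes. Of 8 sorting and endocytosis genes, 4 were higher in neurons and 3 in glia. The sorting receptor Sorl1 (1.81 ± 0.06) and Sorcs1 (1.23 ± 0.11) were higher in the mean of neurons, but not in each type. Sorl1 had 40.2 TPM in interneurons and 75.55 to 217 TPM in the other neurons, against 44.8 TPM in astrocytes and 14.5 TPM in microglia. Sorcs1 had 1.635 TPM in dentate granule cells and 6.44 to 14.8 TPM in the other neurons, against 3.16 TPM in astrocytes and 1.73 TPM in microglia. The endocytic receptor Lrp1 (-1.74 ± 0.06) and the clathrin adaptor Picalm (-1.15 ± 0.03) were higher in glia, Picalm with 571 TPM in microglia and 81.0 TPM in astrocytes, against 75.7 to 192 TPM in neurons. Of 4 genes for proteases that degrade amyloid-beta, Mme, encoding neprilysin, was higher in neurons (0.73 ± 0.16, with 19.1 TPM in interneurons and at most 3.88 TPM elsewhere). Ece2 was also called higher in neurons (0.38 ± 0.06), but ranged there from 4.39 TPM in layer V to 43.8 TPM in interneurons. Its mean was 19.8 TPM in astrocytes and 7.90 TPM in microglia. Ide, encoding insulin-degrading enzyme, was higher in glia (-0.80 ± 0.12) through astrocytes, with 62.5 TPM. Microglia had 18.4 TPM of Ide, within the neuronal range of 14.8 to 46.95 TPM.

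On the side of tau, 16 of 17 genes for kinases and phosphatase subunits that act on it were called higher in neurons (36.4% of all genes), with a median log2 difference of 0.86. The largest differences were those of Cdk5r1, the p35 activator of Cdk5 (1.86 ± 0.04, SE), and the tau tubulin kinase Ttbk2 (1.77 ± 0.05). Csnk1d was higher in glia by little (-0.07 ± 0.03, edgeR adjusted p = 0.0423). Not every neuronal type was above both glial types for the genes called higher in neurons. Ppp2r2b had 120 TPM in astrocytes and 15.6 TPM in microglia. Its neuronal means were 35.1 TPM in dentate granule cells, 38.1 TPM in cerebellar granule cells, 161 TPM in interneurons and 176.5 TPM in layer V. Fyn had 106.5 TPM in astrocytes, against 82.7 TPM in layer V and 110 to 132 TPM in the other neurons. The 5 other microtubule-associated proteins were all higher in neurons, with a median of 2.26, Map1b (2.78 ± 0.04) and Map1a (2.30 ± 0.05) most. Map4 differed least (0.22 ± 0.03), with 290 TPM in astrocytes and 160 TPM in microglia, against 276 to 618 TPM in neurons. Of the prion relatives, Sprn, encoding shadoo, was higher in neurons (2.32 ± 0.05), as was Stip1, a chaperone that binds the prion protein (0.99 ± 0.04). Prnd was called higher in glia (edgeR adjusted p = 0.0024), but its mean was at most 0.152 TPM in any type and no fold is given. Of the smaller synucleins, Sncb was higher in neurons (3.09 ± 0.05), with 1665 TPM in layer V and 105 TPM in microglia. Sncg was called higher in glia (-1.11 ± 0.17), yet its highest mean was 61.9 TPM in interneurons, against at most 1.76 TPM in every other type.

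**Figure D5:**
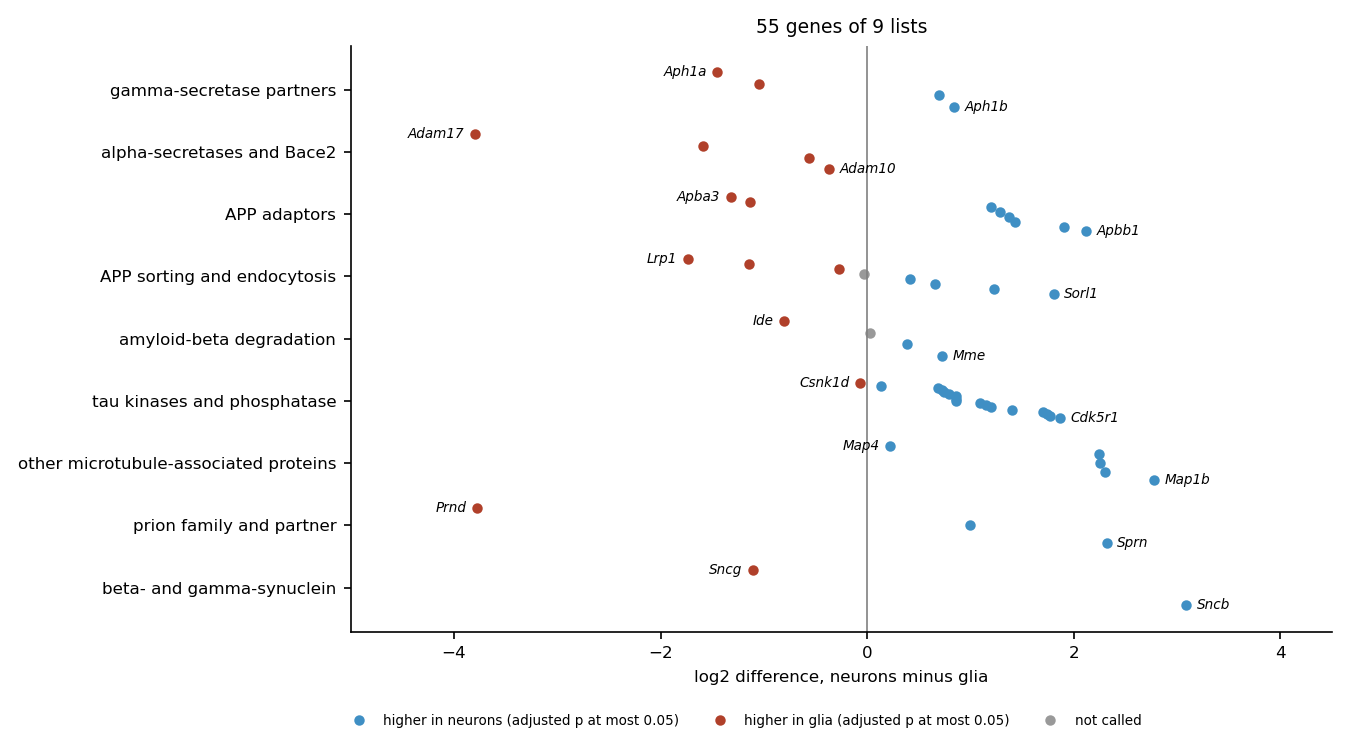
Log2 difference, neurons minus glia, of the 55 genes of 9 lists (points, colour by call at an adjusted p of at most 0.05; the lowest and highest gene of each list is named). All 4 genes of the alpha-secretase and Bace2 list lie below 0, and all 5 other microtubule-associated proteins lie above it.

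The genes whose scaled log2 counts were most like those of each member over the 18 libraries, which fall into 6 cell types and share batches within them, had Pearson r of 0.963 to 0.996; as the libraries of a type lie close together, r mostly compares cell types. For App these were 5730409E04Rik, Psmd12 and Srcin1, and for Mapt Gnai1, Ppm1a and Lrrc49. For Bace1 they were Slc2a13, 1500004A13Rik and Ctif, for Aplp1 Cers1, Bcr and Camk2g, and for Aplp2 4632415L05Rik, Hspa9 and Tm9sf4. For Prnp they were Them4, Fam171b and Cdh2, for Psen2 Tgoln1, Fundc1 and Tmem132c, and for Ncstn Gm15931, Trim30c and Bach2os. Among the members, Mapt was most alike to Bace1 (r = 0.935) and App (r = 0.919) and Aplp1 to Prnp (r = 0.912), while Ncstn ran opposite to Prnp (r = -0.899), Bace1 (r = -0.886), Aplp1 (r = -0.868) and Mapt (r = -0.851). These are descriptions, and no test was made.

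In the GRCm38 annotation App lies on chromosome 16 (84949685 to 85173766, minus strand), Aplp1 on chromosome 7 (30434982 to 30445535, minus), Aplp2 on chromosome 9 (31149557 to 31211815, minus) and Bace1 on chromosome 9 (45838580 to 45864399, plus). Psen2 (180227004 to 180263438, minus) and Ncstn (172066013 to 172082795, minus) are on chromosome 1, Mapt on chromosome 11 (104231390 to 104332090, plus) and Prnp on chromosome 2 (131909928 to 131938429, plus). Bace1, App, Psen2 and Mapt also overlap genes on the opposite strand, while Aplp1 and Aplp2 overlap none.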

How the data were processed

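RiboTag mRNA-seq libraries (22, from 18 replicates of 6 cell types) were analysed. Reads were trimmed with cutadapt 3.5 and pseudoaligned to GENCODE M24 transcripts (GRCm38) with kallisto 0.46.2 by the authors, per the labels; the deposited tables give estimated counts and TPM for each transcript. Both were summed per gene. The batch 1 library was used for the 4 replicates sequenced in both batches. Estimated counts were rounded and fitted with edgeR 4.0.16 (R 4.3.3; TMM, filterByExpr, quasi-likelihood test) over 18 libraries and all 20524 genes that passed, with Benjamini-Hochberg adjustment; an adjusted p of at most 0.05 is a call. Standard errors (SE) of log2 differences were derived from the quasi-likelihood test, as the absolute difference divided by the square root of its F statistic. Transcript use was tested with diffSpliceDGE. Both scripts were tested on simulated data. Shares are of TPM, compared by exact permutation tests. Uncertainty in assigning reads to transcripts is not part of the errors. The authors' sleuth test was not run. Coding sequences and exons came from GENCODE M21 (GRCm38), which matched all 64 member transcripts by versioned ID. Members and lists were chosen with earlier results of these data known. Named genes are the members, their transcripts at 1% or more (App, Aplp2, Mapt) or leading, up to 2 called genes per list and direction, and the 3 most alike per member. Replicates with the same number deviated together little (45 pairs, r from -0.10 to 0.11), so numbers were not taken as pairing. Alternatives were DESeq2 1.42.0, other scalings, filters and library choices, and limma 3.58.1 on log2(TPM + 1).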

Additional observations from a re-analysis of the deposited data

Results flagged for a closer look

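Aplp1, Aplp2 and Prnp differed from the neuronal mean in opposite directions in the 2 glial types. On the log2 count scale astrocytes were above the mean of neurons and microglia below it, although Aplp2 in astrocytes was at 87.7% of the neuronal mean in TPM and Aplp1 in astrocytes was not distinguished from dentate granule cells or layer V neurons (edgeR adjusted p = 0.781 and 0.208). For each gene, the difference between astrocytes and microglia passed edgeR's test. On the log2 scale that difference was 4.76 for Prnp (adjusted p = 6.18e-20), 3.55 for Aplp1 (adjusted p = 7.22e-18) and 2.16 for Aplp2 (adjusted p = 1.84e-15), and it had the same direction in 3 of 3 libraries against 3. Astrocytes were sequenced in batch 1 and microglia in batch 2, so batch and cell type cannot be told apart here.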

How the results depend on the processing

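App, Bace1, Ncstn and Mapt kept the direction and call of their difference between neurons and glia under all 30 alternatives, but the size moved within batches 1 and 2: to 1.10 and 2.83 for Bace1, -0.16 and -1.63 for Ncstn, and 1.23 and 2.60 for Mapt. Within batch 1, which sets 3 neuronal types against astrocytes alone, the difference turned for Aplp1 (-0.73), Aplp2 (-0.49), Prnp (-1.36) and Psen2 (-0.014), with no microglia in the comparison. Psen2, not called as reported (0.08), passed with protein-coding transcripts only (0.12), the batch 2 library of repeated replicates (0.15), 22 libraries with batch as a covariate (0.14), within batch 2 (0.33) and on log2(TPM + 1) (0.26); with 1 library left out its difference was 0.087 to 0.14. The App Kunitz share within batch 2 (-74.5 points) and the Aplp2 Kunitz share within batches 1 and 2 (-3.21 and -14.7 points) did not pass, where 3 libraries against 3 cannot in batch 2. The Aplp2 share was -23.5 points when only transcripts with a complete coding sequence were used, an alternative chosen after seeing the data. No other call for the neuron and glia contrast of the members or the Kunitz shares changed when 1 library was left out: the App Kunitz share was -52.5 to -40.7 points, the Aplp2 share -9.69 to -7.17 points, while 38 to 39 list genes were higher in neurons and 14 to 15 in glia.

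Small differences between pairs of cell types turned. Bace1 in dentate minus cerebellar granule cells was -0.021 with DESeq2, -0.054 without a filter, -0.048 with at least 50 counts in 3 libraries, -0.0072 with the batch 2 library, -0.067 with 22 libraries, and -0.12 to 0.018 with 1 library left out. Ncstn in cerebellar granule cells minus interneurons was -0.0033 with upper-quartile scaling and -0.061 on log2(TPM + 1). App in layer V minus interneurons was -0.0062 without a filter, -0.28 on log2(TPM + 1) and -0.012 to 0.055 with 1 library left out. Without a filter, astrocytes minus microglia was 0.028 for App and 0.015 for Psen2. On log2(TPM + 1), Aplp1 in layer V minus astrocytes was 0.011, Aplp2 in interneurons minus astrocytes 0.21, Psen2 in dentate granule cells minus layer V 0.046, Ncstn in dentate granule cells minus astrocytes 0.18, Mapt in layer V minus interneurons -0.22 and Prnp in dentate granule cells minus layer V 0.14. With 1 library left out, Aplp2 in interneurons minus astrocytes was -0.14 to 0.039 (positive without astrocyte replicate 3), Mapt-202 use -1.30 to 1.496 (positive without microglia replicate 1) and Mapt-203 use -0.30 to 0.016; with the batch 2 library Mapt-202 was at 1.90. The causes were not tested.

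With the replicate number as a block, 7451 of all genes were higher in neurons and 9578 in glia, 38 and 14 list genes were, 11 of the App and Mapt transcripts were called in place of 12, and no member's call changed (Psen2 0.08). The test of the Mapt 4-repeat share was not run, because no annotated full-length transcript has 3 repeats.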
